A study of Mus musculus with 8 samples.

Results

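The RNAs described here are the sequences of 28, 29 or 30 nt whose first base is U (T in the deposited sequences). They are called members below, and they were chosen by length and first base alone, in each of 8 small RNA libraries of mouse germ cells and germ cell-like cells. The libraries together held 2137470 distinct sequences, of which 300837 were members. A sequence counted in several libraries is 1 member, and sequences that share most of their bases are separate members although they may come from 1 precursor.

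PIWI proteins are the Argonaute proteins of the germ line, and the small RNAs they carry, the piRNAs, guide them to transcripts of transposable elements. In fetal male germ cells of the mouse MILI, which is cytoplasmic and cleaves RNA, appears before MIWI2, which enters the nucleus and directs DNA methylation to transposable elements. MIWI2 holds slightly longer piRNAs than MILI, and guides of both tend to start with U. When a PIWI protein cleaves a target opposite base 10 of its guide, the cleaved RNA can become a new piRNA whose first 10 bases pair with those of the guide, so that a guide with a first U gives a partner with A at position 10.

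The libraries used here hold small RNA from sorted male mouse primordial germ cells (mPGCs) and from primordial germ cell-like cells (mPGCLCs) grown from embryonic stem cells, in 4 groups of 2, and other libraries of the study were not used here. The mPGCs were taken at embryonic day E12.5, E13.5 or E15.5 and have the origin GOF18, a mouse line in which regulatory sequence of Pou5f1 drives EGFP. The mPGCLCs were taken at Day 6 of culture in embryoid bodies from the male SGET stem cell line, strain B6CBA/129, and sorted as Stella-GFP positive and Esg1-tdTomato negative. The comparisons ask how piRNA-like RNA changes with the age of the germ cells and whether cultured cells hold it.

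For the mPGCs the labels name the strain C57BL/6J and a sort on the surface markers SSEA1 and CD61, whereas the methods text names a mixed FVB/C57BL/6J background and a sort on EGFP. Each mPGC library came from 2 pooled embryos, and libraries of 1 stage came from different litters. All mPGCLC libraries came from a single stem cell line. The same kit was used throughout, with a slow ligation step meant to favour RNAs methylated at their 3′ end, as piRNAs are.

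The values are raw counts of mapped reads per distinct sequence. Total counts were 7447873 and 13614516 in E12.5 replicates 1 and 2, 12043363 and 19734948 (E13.5), 13601492 and 26552524 (E15.5), and 10209580 and 9526338 (SGET mPGCLCs). Per-library values follow in that order, replicate 1 first. A count of 0 in a library allows a share of up to 3 counts of its total, from 1.13e-05% in E15.5 replicate 2 to 4.03e-05% in E12.5 replicate 1. Reads carry no molecular identifiers, so these limits and the Wilson intervals given with shares cover counting error only. With 2 libraries against 2, the exact two-sided permutation test over libraries cannot give a p below 0.33, and its p does not measure spread. The p-values of the main edgeR fit below rest on a spread estimated from all 8 libraries together. Every p here describes these samples only.

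The name MIWI2-sized describes length, and length does not assign a read to a protein: the data hold no immunoprecipitation, and MILI-bound piRNAs reach into the same lengths. In the libraries with few members, the rule also collected pieces of other RNAs. Member reads that matched annotated structural RNA or miRNA hairpins exactly made up 14.2% and 19.01% (E12.5) and 16.0% and 12.05% (SGET mPGCLCs). The corresponding values were 2.09% and 3.91% (E13.5) and 0.121% and 0.149% (E15.5). These are lower limits, since the annotation used here does not hold all structural RNAs and a mismatch ends a match. The label therefore covered a mixture at E12.5 and in the cultured cells. For these libraries the members are best read as RNAs of a given length and first base.

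The labelled cell types were checked with miRNAs. A list of 9 miRNA genes of germ and pluripotent cells (Mir291a, Mir292, Mir293, Mir294, Mir295, Mir302a, Mir302b, Mir302c and Mir302d) summed to 3.74% and 5.35% of reads at E12.5, 3.32% and 4.58% (E13.5), 0.351% and 0.247% (E15.5), and 5.83% and 8.59% (SGET mPGCLCs). Mir292 was the most abundant of the list in each library. Mir302a was counted in E12.5 replicate 2, E13.5 replicate 2 and E15.5 replicate 2 and was at 0 in the other 5 libraries. The sum, most of it Mir292, was thus lowest in both E15.5 libraries and highest in the SGET libraries, an order that single genes of the list, such as Mir302b, did not all share.

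Mir202, the gene listed for the gonadal soma, took 0.0132% and 0.0169% (E12.5), 0.0273% and 0.0445% (E13.5), and 0.00522% and 0.0108% (E15.5), and was at 0 in both SGET libraries. Mir126, listed for vessels, took 0.00175% and 0.00245% (E12.5), 0.00370% and 0.00278% (E13.5), 0.000426% and 0.000102% (E15.5), and 0.00860% and 0.00637% (SGET mPGCLCs). The red blood cell list (Mir451a and Mir144) was at 0 in both E12.5 and both SGET libraries and in E13.5 replicate 1, and summed to at most 0.000370% elsewhere. Mir143 and Mir145, named for mesenchyme, had no mature sequence in the annotation and were not analysed here. The other 3 lists thus each held at most 0.0445% of reads in any library. Their part in the member shares was not tested.

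In E12.5 replicate 1 members took 0.653% of reads, with a 95% Wilson interval of 0.647 to 0.659, while replicate 2 had 0.742% (0.737 to 0.747). At E13.5 they took 2.26% (2.25 to 2.27) and 4.10% (4.09 to 4.10), and at E15.5 21.3% (21.26 to 21.31) and 24.3% (24.30 to 24.33). In SGET mPGCLCs they took 0.951% (0.945 to 0.957) and 0.678% (0.673 to 0.683). The mPGC libraries ranked by stage without overlap, and the SGET libraries lay on both sides of E12.5 replicate 2. In bulk samples, fewer cells that carry an RNA and less of the RNA per cell cannot be told apart.

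The mean share rose from 0.698% ± 0.0630 (SD, n = 2) at E12.5 to 3.18% ± 1.30 (SD, n = 2) at E13.5, a fold of 4.56 ± 1.91 (propagated SD; exact permutation test, p = 0.33). It reached 22.8% ± 2.14 (SD, n = 2) at E15.5, a further fold of 7.18 ± 3.01 (exact permutation test, p = 0.33). For both steps every library of the later stage was above every library of the earlier stage. The size of the second step depended on what members were set against. It was 4.06-fold over reads of 20 to 33 nt and 39.7-fold over reads of 21 to 23 nt, the length of most miRNAs.

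In SGET mPGCLCs the mean share was 0.815% ± 0.193 (SD, n = 2). This was 1.17 ± 0.296 times the E12.5 mean, with overlapping groups (exact permutation test, p = 0.667), and 0.972 times without SGET replicate 1, so no direction can be given. Against E13.5 the SGET share was 0.256 ± 0.121 times as high, and both SGET libraries were below both E13.5 libraries (exact permutation test, p = 0.33).

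The 3 lengths were not equally frequent. At E15.5, 28 nt members took 11.7% and 12.4% of reads, 29 nt members 6.83% and 7.99%, and 30 nt members 2.77% and 3.93%. At E13.5 the shares were 1.18% and 2.01% for 28 nt, 0.690% and 1.32% for 29 nt, and 0.390% and 0.764% for 30 nt. At E12.5 they were 0.276% and 0.332%, 0.242% and 0.24997%, and 0.134% and 0.160%. Shares thus fell with length in all 6 mPGC libraries. In SGET mPGCLCs the shares were 0.420% and 0.281% for 28 nt, 0.263% and 0.233% for 29 nt, and 0.269% and 0.164% for 30 nt. There the 30 nt share of replicate 1 slightly exceeded its 29 nt share.

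Just outside the length limits, 27 nt sequences with a first U took 15.8% ± 0.0843 (SD, n = 2) of reads at E15.5 and 31 nt sequences 1.25% ± 0.534 (SD, n = 2). Members at the inner edge, of 28 and 30 nt, took 12.04% ± 0.504 (SD, n = 2) and 3.35% ± 0.817 (SD, n = 2). No step marked either limit of the range at E15.5.

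Among all 28 to 30 nt reads, U was the first base in 23.98% and 26.1% (E12.5), 58.1% and 62.1% (E13.5), 75.0% and 74.9% (E15.5), and 31.9% and 26.5% (SGET mPGCLCs). The means differed by 35.1 points between E13.5 and E12.5 and by 14.8 points between E15.5 and E13.5, without overlap of groups (exact permutation test, p = 0.33 each). The second step was 6.71 points over distinct sequences and 7.69 points over abundant ones (those above the low counts of their library). The SGET mean was 4.18 points above the E12.5 mean when reads were counted, 1.43 over abundant sequences and -1.01 over distinct sequences, so no direction can be given. At E15.5 the first-U share fell slowly with length, from 76.1% ± 0.0410 (SD, n = 2) at 28 nt to 74.0% ± 0.278 (SD, n = 2) at 29 nt and 72.7% ± 0.549 (SD, n = 2) at 30 nt. At E12.5 it was 26.7% ± 0.644, 26.98% ± 2.45 and 20.0% ± 1.63 (SD, n = 2) at these lengths, with no length near the E15.5 level.

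Reads of 20 to 33 nt were also summed into 56 classes by length and first base, and the classes were compared with edgeR's quasi-likelihood test on counts, with all 8 libraries in 1 fit and Benjamini-Hochberg adjustment over the 56 classes. A class was called at an adjusted p under 0.05. The members make up 3 of these classes. The E13.5 libraries enter 3 of the 4 comparisons and the E12.5 libraries 2, so the comparisons are not independent of each other.

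From E12.5 to E13.5 all 3 member classes were called higher, against 5 of all 56 classes, or 8.93%. The log2 fold change was 2.39 (SE 0.40, adjusted p = 2.0e-07) at 28 nt, 2.03 (SE 0.38, adjusted p = 5.0e-06) at 29 nt and 1.97 (SE 0.38, adjusted p = 8.6e-06) at 30 nt. In each of the 3 classes the lower E13.5 library exceeded the higher E12.5 library. The other called classes were the 26 and 27 nt sequences with a first U, and at 31 nt the change of 0.91 was not called (adjusted p = 0.179). In the classes of 28 to 30 nt with another first base the log2 fold changes lay between -0.32 and 0.26, and the median over all classes was -0.07. Without E13.5 replicate 2, the 30 nt class was no longer called (log2 fold change 1.40, adjusted p = 0.0648) and 3 classes were called in all.

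From E13.5 to E15.5 the 3 member classes were again called higher, but so broad a change took place that 43 of 56 classes, or 76.8%, were called in 1 direction or the other. The members' count is therefore not particular to them. Their log2 fold changes were 2.92 (SE 0.41, adjusted p = 7.8e-11) at 28 nt, 2.88 (SE 0.40, adjusted p = 5.2e-11) at 29 nt and 2.54 (SE 0.39, adjusted p = 2.9e-09) at 30 nt. Ranked from the largest rise among all classes, they had ranks 3, 4 and 6. Sequences of the same lengths with another first base rose too, by 0.91 to 2.80 on the log2 scale. The median over all classes was 0.63 with totals as library size and 0.30 with DESeq2's size factors, and the member rises lie well above either. With each distinct sequence counted once, the rises were 2.09, 2.10 and 1.77 at 28, 29 and 30 nt.

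Between SGET mPGCLCs and E12.5 mPGCs edgeR called 0 of the 3 member classes and 0 of all 56 classes (0%). At an unadjusted p under 0.05 there were 5 classes, and DESeq2 called 0. The log2 fold changes were 0.20 (SE 0.38, adjusted p = 0.944) at 28 nt, 0.01 (SE 0.37, adjusted p = 0.976) at 29 nt and 0.55 (SE 0.37, adjusted p = 0.877) at 30 nt. All 3 turned negative when each distinct sequence was counted once, at -0.33, -0.37 and -0.20. No direction can be given for these classes.

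Against E13.5 the SGET libraries were lower in all 3 member classes, with 8 of 56 classes called in either direction, or 14.3%. The log2 fold change was -2.19 (SE 0.39, adjusted p = 1.6e-06) at 28 nt, -2.02 (SE 0.38, adjusted p = 4.2e-06) at 29 nt and -1.42 (SE 0.38, adjusted p = 0.00248) at 30 nt. Both SGET libraries were below both E13.5 libraries in each class. The call at 30 nt was lost without E13.5 replicate 2 (-0.85, adjusted p = 0.276), without SGET replicate 2 (-1.10, adjusted p = 0.2502), and when classes of all lengths were fitted with a filter on low counts (adjusted p = 0.0621). The adjusted p at 30 nt ranged from 8.6e-08 to 0.276 over the alternatives. The calls at 28 and 29 nt held in each alternative fit. With each distinct sequence counted once, the log2 fold changes were -2.89 at 28 nt and -2.08 at 30 nt. The classes called lower numbered 7, and 4 without E13.5 replicate 2, 4 without SGET replicate 2 and 4 in the filtered fit of all lengths.

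Members were set against the 26 and 27 nt sequences with a first U, the size known for MILI. The ratio of member reads to these shorter reads was 0.880 and 0.667 (E12.5), 0.751 and 0.893 (E13.5), 0.679 and 0.796 (E15.5), and 1.10 and 1.13 (SGET mPGCLCs). The mPGC stages overlapped, with folds of 1.06 ± 0.244 from E12.5 to E13.5 and 0.897 ± 0.149 from E13.5 to E15.5 (exact permutation test, p = 0.667 each). The large rise in member share by stage was therefore matched by the shorter class. Counted over distinct sequences, the first fold was 0.839, and over reads it was 0.934 without E12.5 replicate 2 and 0.971 without E13.5 replicate 2, so no direction can be given. Over reads, the SGET ratio was above all mPGC libraries, 1.44 ± 0.280 times the E12.5 mean and 1.35 ± 0.167 times the E13.5 mean (exact permutation test, p = 0.33 each). Under alternatives other than leaving out a library, the fold over E12.5 ranged from 1.01 to 1.59 and that over E13.5 from 1.18 to 1.64. The excess over E12.5 thus depended on the way of counting, and at the low end the group means were nearly equal.

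The number of distinct members was 1739 and 2874 (E12.5), 8695 and 21142 (E13.5), 187336 and 85128 (E15.5), and 2020 and 1534 (SGET mPGCLCs). As a percentage of all distinct sequences of the library this was 0.895% and 1.45%, 3.98% and 7.54%, 23.9% and 23.3%, and 0.908% and 0.991%. Stages did not overlap on this measure, and the SGET libraries lay at the level of E12.5. The mean rose 4.91 ± 2.70-fold from E12.5 to E13.5 and 4.09 ± 1.79-fold from E13.5 to E15.5 (exact permutation test, p = 0.33 each). The SGET mean was 0.809 ± 0.276 times the E12.5 mean (exact permutation test, p = 1.0) and 0.165 ± 0.0728 times the E13.5 mean (exact permutation test, p = 0.33).

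The libraries of E15.5 differed in how their reads were spread over sequences. Replicate 2 had 26552524 reads and 365796 distinct sequences in all, while replicate 1 had 785269 from 13601492. A mean of 16.5 reads fell on each distinct 28 nt member in replicate 1 and of 80.2 in replicate 2. The other libraries lay between 30.4 and 54.2. The percentage of distinct sequences that are members was nevertheless nearly equal in both E15.5 libraries.

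In each library the counts of members had a low mode, at 1 to 3 counts, and a higher mode, with few members between. The low point between the modes lay at a count of 8 and 4 (E12.5), 8 and 8 (E13.5), 4 and 64 (E15.5), and 16 and 16 (SGET mPGCLCs). Members at or above it are called abundant members here. They numbered 525 and 1101 (E12.5), 1445 and 10072 (E13.5), 83795 and 6724 (E15.5), and 290 and 214 (SGET mPGCLCs), and in each library they held over 96% of member reads.

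The median count of an abundant member was 53 and 47 (E12.5), 147 and 62 (E13.5), 25 and 800 (E15.5), and 130.5 and 164 (SGET mPGCLCs). Of the members under the low point, 78.6% and 48.5% (E12.5), 79.4% and 77.7% (E13.5), 70.2% and 71.0% (E15.5), and 78.1% and 80.7% (SGET mPGCLCs) differed by a single substitution from an abundant member. Most distinct members under the low point thus resembled an abundant one, except in E12.5 replicate 2. Numbers of distinct members therefore count sequence variants as well as separate RNAs.

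Reads were concentrated in few members where members were rare. The 10 most abundant members held 24.4% and 26.7% of member reads at E12.5, 5.17% and 5.39% (E13.5), 0.484% and 0.694% (E15.5), and 46.9% and 32.4% (SGET mPGCLCs). The 100 most abundant held 56.7% and 51.1%, 21.1% and 10.6%, 2.07% and 4.69%, and 78.7% and 79.9%. Diversity thus rose from E12.5 to E15.5, and the SGET libraries were the least diverse.

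Few members recurred between libraries. Of all members, 293019 or 97.4% were counted in 1 library only, 6701 in 2 and 18 in all 8. The E15.5 libraries shared 3609 members, 1.93% of those in replicate 1 and 4.24% of those in replicate 2, and 891 were abundant in both, or 1.06% and 13.3% of the abundant members. The E13.5 libraries shared 360 members (4.14% and 1.70%), those of E12.5 shared 226 (12.996% and 7.86%), and the SGET libraries shared 341 (16.9% and 22.2%).

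The shared members carried more reads where the class was small. They held 46.0% and 43.8% of member reads at E12.5, 18.01% and 9.12% (E13.5), 4.52% and 15.9% (E15.5), and 62.2% and 51.9% (SGET mPGCLCs). Many member reads of the E12.5 and SGET libraries thus lay in recurrent sequences. These sequences were not particular to 1 group. Members shared with E13.5 replicate 2 held 47.6% and 54.6% of member reads in the E12.5 libraries, both above the values within the group. In the SGET libraries they held 58.8%, below the value within the group, and 55.6%, above it. E13.5 replicate 2 held 21142 distinct members, far more than any E12.5 or SGET library, and the part of this size in the overlap was not tested. The E15.5 libraries each sampled largely different sequences.

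Of the 6724 abundant members of E15.5 replicate 2, 360 had a count in E12.5 replicate 2, against 10 in E12.5 replicate 1, 8 in SGET replicate 1 and 9 in SGET replicate 2. Only 11 of the 360 were abundant in E12.5 replicate 2 as well. The same held for E13.5, where 586 had a count in replicate 2 (165 abundant) and 40 in replicate 1. Low counts in the replicate 2 libraries of E12.5 and E13.5 thus included many sequences that were abundant in E15.5 replicate 2. The cause was not tested, nor was carry-over between libraries. The methods text names HiSeq and NovaSeq instruments without saying which library was run on which. Counts of single sequences in E12.5 replicate 2 and E13.5 replicate 2 are to be read with this in mind. Without E12.5 replicate 2, the fold of the member share from E12.5 to E13.5 was 4.87 and that of distinct members 6.43, and the SGET percentage of distinct members became 1.06 times that of E12.5. Without E13.5 replicate 2, the folds of the member share were 3.24 from E12.5 to E13.5 and 10.1 from E13.5 to E15.5.

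Base composition along the read was described over abundant members, each counted once, with positions counted from 1 at the 5′ end. At position 2, A stood in 33.4% and 33.7% (E13.5) and 33.4% and 32.4% (E15.5), and G in 35.8% and 36.3% and in 33.6% and 35.1%. C was at 14.0% and 13.4%, and at 15.03% and 14.9%, and U between 16.6% and 17.9% in these 4 libraries. A purine thus followed the first U in over 2 of 3 abundant members at both stages. At E12.5 position 2 held A in 21.5% and 16.7% and U in 29.5% and 30.97%, and in SGET mPGCLCs A in 10.7% and 19.2% and U in 33.8% and 24.3%.

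At position 5, A reached 38.5% and 38.3% (E13.5) and 35.4% and 35.8% (E15.5), against 22.9% and 26.6% (E12.5) and 24.8% and 26.2% (SGET mPGCLCs). Among positions 2 to 26, this was the highest percentage of A in each E13.5 and E15.5 library. The 26 and 27 nt sequences with a first U had the same 2 features at E15.5, with A at position 2 in 33.6% in each library and at position 5 in 38.3% and 38.9%. The libraries of E12.5 and SGET mPGCLCs had neither, and they were set apart from E13.5 and E15.5 at both positions without overlap.

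Position 10 changed with stage in a different way. Among all distinct members, A stood there in 18.9% and 22.9% (E12.5), 27.9% and 28.2% (E13.5), 35.6% and 35.4% (E15.5), and 15.4% and 12.8% (SGET mPGCLCs). The 4 groups did not overlap on this measure. The mean rose by 7.17 points from E12.5 to E13.5 and by 7.46 points from E13.5 to E15.5, and the SGET mean was -6.75 points from E12.5 and -13.9 points from E13.5 (exact permutation test, p = 0.33 each). Over abundant members A stood there in 17.1% and 22.3% (E12.5), 26.8% and 27.98% (E13.5), 34.1% and 33.7% (E15.5), and 18.97% and 18.2% (SGET mPGCLCs). There the SGET and E12.5 groups overlapped, with a difference of -1.10 points (exact permutation test, p = 1.0), and SGET mPGCLCs were -8.79 points from E13.5. Over reads the step from E12.5 to E13.5 was 12.2 points and SGET mPGCLCs were -3.96 points from E12.5.

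The neighbours of position 10 give a level to set it against. Over abundant members, A at position 10 exceeded the mean of positions 8, 9, 11 and 12 by 7.59 and 7.45 points (E15.5), by -0.640 and 0.747 points (E13.5), by -7.38 and -4.43 points (E12.5), and by -5.26 and -6.19 points (SGET mPGCLCs). An excess was thus present in both E15.5 libraries, and at E13.5 the libraries lay on both sides of 0. With structural RNA and miRNA matches removed, the excess at E15.5 was 7.60 and 7.45 points.

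The excess of A at position 10 differed between the lengths. At E15.5 it was 6.27 and 5.95 points at 28 nt, 8.51 and 8.96 points at 29 nt, and 9.80 and 8.93 points at 30 nt. The 26 and 27 nt sequences with a first U had 1.85 and 3.16 points. In both libraries the members thus carried a larger excess than the shorter sequences. The 28 to 30 nt sequences without a first U had 30.4 and 32.2 points, a far larger excess than the members.

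Few members of the later stages ended in G. At position 30 of the 30 nt abundant members, G stood in 10.3% and 10.8% (E15.5) and 12.6% and 12.8% (E13.5), against 23.5% and 17.1% (E12.5) and 32.7% and 29.7% (SGET mPGCLCs). The last base, whatever the length, was G in 14.1% and 14.9% (E15.5) and 17.1% and 15.7% (E13.5) of abundant members, while 1 base before the end G stood in 23.6% and 25.5% (E15.5). For the 26 and 27 nt sequences with a first U the last base was G in 21.9% and 24.2% (E15.5) and 23.5% and 23.6% (E13.5). Longer sequences thus ended in G less often than shorter ones in all 4 of these libraries, a difference that was not tested. At E12.5 the gap was small, with 22.1% and 20.0% of members against 23.7% and 20.7% of the shorter sequences. In SGET mPGCLCs the order was reversed, with 26.6% and 22.4% against 25.2% and 20.8%.

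For abundant members that matched a transcript, the bases beyond the 3′ end could be read from the transcript. The next base was U in 24.9% and 26.8% (E15.5) and 29.4% and 28.04% (E13.5). Positions 2 to 6 beyond the end had U in 21.4% to 27.2% (E15.5) and 21.4% to 27.9% (E13.5). The last 2 bases of the read itself had U in 28.2% to 30.4% at E13.5, so no peak of U stood at the next base.

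A member shares its 5′ end with a shorter sequence when its first 26 or 27 nt are themselves a sequence of the same library. This held for 15.3% and 11.7% of distinct members at E12.5, 3.19% and 7.20% (E13.5), 8.09% and 4.64% (E15.5), and 19.8% and 14.0% (SGET mPGCLCs). The E13.5 and E15.5 libraries overlapped each other and lay below those of E12.5 and SGET mPGCLCs. The mean changed by -8.32 points from E12.5 to E13.5 (exact permutation test, p = 0.33) and by 1.17 points from E13.5 to E15.5 (exact permutation test, p = 0.667). SGET mPGCLCs were 3.37 points from E12.5 (exact permutation test, p = 0.667) and 11.7 points from E13.5 (exact permutation test, p = 0.33).

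Weighted by reads, sharing was more frequent, with 42.8% and 44.6% of member reads at E12.5, 9.75% and 19.1% (E13.5), 16.8% and 9.21% (E15.5), and 43.98% and 38.2% (SGET mPGCLCs). The direction from E13.5 to E15.5 turned, to -1.42 points (over distinct members -0.834 without E13.5 replicate 1 and -0.552 without E15.5 replicate 1), as did that from E12.5 to SGET mPGCLCs, to -2.60 points. The step from E12.5 to E13.5 was -29.3 points over reads, and SGET mPGCLCs were 26.7 points above E13.5. Among abundant members alone the shares were 21.7% and 18.5%, 4.43% and 10.1%, 10.9% and 4.12%, and 19.3% and 16.4%. At E15.5 at least 8 of 10 member reads thus had a 5′ end of which no 26 or 27 nt form was counted in the same library.

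Sequences of 28 to 30 nt without a first U, measured in the same way, shared a 5′ end in 15.8% and 15.3% (E12.5), 7.15% and 11.3% (E13.5), 5.72% and 3.54% (E15.5), and 12.9% and 11.1% (SGET mPGCLCs). Members were below them in both libraries of E13.5 and above them in both libraries of E15.5. In SGET mPGCLCs members were above them over distinct sequences but below them over reads, where sequences without a first U had 44.9% and 43.1%. Drawn down to an equal total of reads, the members had 15.3% and 12.47%, 3.04% and 8.09%, 8.42% and 3.68%, and 19.6% and 13.01%. The E15.5 libraries thus still differed at an equal total, which does not equalize their reads per sequence.

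Where a member and a 26 or 27 nt form of it were both abundant at E15.5, its count was set against the summed count of those forms. The median was 0.571 and 0.861 times that sum, and the member was below the sum in 67.9% and 57.8% of cases. Both shorter lengths entered the sum for 2492 of 9114 and 39 of 277 such members, which tilts the comparison towards the shorter forms. Over all sharing members the member was below the sum in 59.0% and 49.4%, with a median of 1.0 in replicate 2. In that library the summed shorter forms thus led among abundant sequences only. Among the 28 nt abundant members at E15.5 that extend an abundant 27 nt sequence, base 28 was A in 33.997% and 40.7%. Among the other 28 nt members it was A in 29.1% and 28.6%. The extending members were thus richer in a terminal A, and this held in 7 of 8 libraries, SGET replicate 2 being the exception with 28.6% against 34.2%. Extending members numbered 43 and 76 (E12.5), 22 and 397 (E13.5), 3265 and 91 (E15.5), and 25 and 14 (SGET mPGCLCs). The difference was not tested.

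The structural matches described above fell by 13.6 points from E12.5 to E13.5 and by 2.86 points from E13.5 to E15.5, without overlap (exact permutation test, p = 0.33 each). SGET mPGCLCs were at -2.59 points from E12.5, with overlap (exact permutation test, p = 0.667) and a range of -5.005 to -0.167 points with 1 library left out, and 11.01 points above E13.5 (exact permutation test, p = 0.33). Over distinct members these differences were smaller, with -3.83 and -0.573 points by stage and 1.83 points for SGET mPGCLCs minus E13.5. Not all structural RNAs could be matched, and among the kinds that could the largest in each library was small nucleolar RNA, with 8.76% and 13.52% of member reads at E12.5, 1.22% and 2.63% (E13.5), 0.0440% and 0.0521% (E15.5), and 8.55% and 7.33% (SGET mPGCLCs). When only the first 20 nt had to match, the totals were 30.7% and 36.5%, 4.94% and 8.11%, 0.557% and 0.535%, and 28.5% and 22.9%. The order of the groups was the same by either match, and the looser one raised the values of all 8 libraries by over 1.5 times and set SGET mPGCLCs -7.93 points from E12.5, without overlap.

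Members were matched exactly to GENCODE M21 transcripts of the GRCm38 build. Of member reads, 18.3% and 17.2% (E12.5), 45.9% and 45.1% (E13.5), 11.8% and 12.01% (E15.5), and 8.12% and 9.21% (SGET mPGCLCs) matched transcripts in the sense direction only. Antisense-only matches took 0.987% and 2.20%, 1.57% and 2.19%, 5.19% and 5.46%, and 0.268% and 0.570%. No transcript was matched by 62.4% and 58.8%, 48.1% and 46.5%, 81.3% and 81.1%, and 73.5% and 71.6%. E13.5 thus stood out by its sense matches and E15.5 by unmatched and antisense reads, in both libraries of each. A read with a mismatch, an intronic or intergenic origin or an origin in an unannotated repeat is counted as unmatched, and genome positions were not analysed here.

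Abundant members in the sense direction of protein-coding transcripts held 44.5% and 43.6% of the reads of abundant members at E13.5, against 11.7% and 9.83% (E12.5), 8.11% and 7.80% (E15.5), and 2.80% and 4.72% (SGET mPGCLCs). Of these reads, 50.3% and 51.0% (E13.5) and 63.5% and 66.3% (E15.5) lay in 3′ UTRs. The 3′ UTRs made up 58.2% and 51.9% of the bases of the matched transcripts at E13.5 and 54.0% and 65.2% at E15.5. Coding sequence held 43.0% and 43.7% of the reads at E13.5 and 29.7% and 27.7% at E15.5, with 36.1% and 42.3%, and 40.1% and 29.6%, of the bases. Weighted by reads, 3′ UTRs were thus below their share of bases at E13.5 and above it at E15.5. The gap was wide in the replicate 1 libraries and narrow in the replicate 2 libraries, and it was not tested. Counted once each, 2562 of 4811 such members of E13.5 replicate 2 lay in 3′ UTRs, above the share of bases, so the direction turned in that library. The genes with a sense abundant member numbered 82 and 164 (E12.5), 448 and 2089 (E13.5), 3475 and 440 (E15.5), and 22 and 15 (SGET mPGCLCs).

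The genes named here were chosen after their values were seen, from among those with the most sense member reads. Counts cover members that match 1 gene only. Not every high-ranking gene is given. At E13.5 Rpl5, Gm42418 and AU020206, with mean shares of 0.0252%, 0.0180% and 0.0165%, ranked above Pou2f1 (0.0147%) and are left out of this list. D10Wsu102e (chr10:83360221-83488505, plus strand) is annotated as protein-coding. It had 3 and 19 member reads (E12.5), 5905 and 12714 (E13.5), 43240 and 93960 (E15.5), and 251 and 2 (SGET mPGCLCs). Its mean share was 0.0567% of all reads at E13.5 and 0.336% at E15.5, the highest of any gene at both stages. At E15.5 the reads were spread over 1249 and 140 distinct members, and 276 and 47 further members with 10193 and 28502 reads matched the opposite strand. In E13.5 replicate 2 the opposite strand had 762 reads, and in replicate 1 it had 0.

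Other genes with many member reads at E13.5 did not gain as much. Eif4ebp2, which encodes a binding protein of the translation factor eIF4E (chr10:61428491-61452661, minus strand), had 75 and 1 reads (E12.5), 2373 and 4140 (E13.5), 1591 and 5458 (E15.5), and 0 in both SGET libraries. The kinase gene Abl2 (chr1:156558786-156649568, plus strand) had 0 in both E12.5 libraries, 1804 and 4276 reads (E13.5), 1089 and 3238 (E15.5), and 0 and 1 (SGET mPGCLCs). Pou2f1, which encodes the transcription factor OCT1 (chr1:165865154-166002678, minus strand), had 0 and 3, 1126 and 3955, 692 and 2260, and 0 and 0. As shares of all reads, Abl2 and Pou2f1 were lower in both E15.5 libraries than in both E13.5 libraries, unlike the class as a whole. For Eif4ebp2 the shares of 0.0197% and 0.0210% (E13.5) and 0.0117% and 0.0206% (E15.5) overlapped.

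The next 3 genes are among those that ranked high at E15.5 and have no coding annotation, and they were chosen after values were seen, so their low counts before do not describe all such genes. Gm42427 (chr5:44137980-44143271, plus strand) had 1 and 3 reads (E12.5), 564 and 185 (E13.5), 6842 and 16409 (E15.5), and 1 and 0 (SGET mPGCLCs). Gm48274 (chr10:50424086-50424340, plus strand), a short gene model, had 0 and 1, 0 and 1, 1803 and 15682, and 0 and 0. Gm43305 (chr14:54292443-54297456, minus strand) had 0 in both E12.5 libraries and in E13.5 replicate 1, 214 in E13.5 replicate 2, 3937 and 7257 at E15.5, and 0 in both SGET libraries.

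The 5 members that lead at E15.5 by mean share are given as examples and do not stand for the class as a whole. Capitals mark base 1 and base 10, the positions where a first U and a partner's A would stand.
E15.5 member 1: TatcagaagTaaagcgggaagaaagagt
E15.5 member 2: TagcccatcTctgttcgtccattatact
E15.5 member 3: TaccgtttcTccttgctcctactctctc
E15.5 member 4: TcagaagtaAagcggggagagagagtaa
E15.5 member 5: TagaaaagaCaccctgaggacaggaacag
None of the 5 was counted in SGET mPGCLCs or in E12.5 replicate 1, and none matched an annotated structural RNA or miRNA. Of the 5, member 4 alone has A at position 10. Members 1 and 4 share most of their bases at a shifted start, so they may not be separate examples.

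The first of them lies in Gm42566, which GENCODE annotates as TEC (chr5:64564303-64564330, minus strand), and the other 4 matched no transcript. Member 1 had 1393 and 4301 counts at E15.5 and 211 in E13.5 replicate 2, and a mean share of 0.0132% ± 0.00421 (SD, n = 2). Member 2 had 1508 and 3619 counts (E15.5), 192 and 75 (E13.5) and 1 in E12.5 replicate 2, a mean of 0.0124% ± 0.00180 (SD, n = 2) at E15.5. Member 3 had 751 and 5050 counts at E15.5 and 0 in each other library. Member 4 had 71 and 6143 (E15.5) and 0 elsewhere, and member 5 had 1000 and 4184 (E15.5) and 193 in E13.5 replicate 2. Members 3 and 4 thus owe their rank largely to replicate 2. The highest share of any of the 5 in 1 library was 0.0231%, that of member 4 in E15.5 replicate 2, against 24.3% for all members there.

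A member with higher counts outside E15.5, though abundant in both E15.5 libraries too, is a piece of a known RNA. It is an example of the mixture at E12.5 and in SGET mPGCLCs. Capitals again mark base 1 and base 10.
Snord21 piece: TgccaatgaTgacaccacactaactgagc
This sequence (chr5:107904554-107904582, plus strand) starts 1 base before the RefSeq small nucleolar RNA Snord21, inside a retained intron of Rpl5. It had 2077 and 5974 counts (E12.5), 2135 and 6332 (E13.5), 69 and 557 (E15.5), and 3514 and 2490 (SGET mPGCLCs). As a count it was thus lower in both E15.5 libraries than in each of the other 6.

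Some members have the same first 26 nt and form a family. The 3 with the highest mean member share at E15.5, among those with more than 1 member and no structural match, each held an abundant form and a rare one. Capitals mark the bases after position 26.
Family 1, abundant: taaagatgtaacaaaagggtgtactgTA
Family 1, rare: taaagatgtaacaaaagggtgtactgAA
Family 2, abundant: tgggaggacctgtgacctgcttcgggTG
Family 2, rare: tgggaggacctgtgacctgcttcgggCG
Family 3, abundant: ttcttgctggcgagtcgggcatctacAA
Family 3, rare: ttcttgctggcgagtcgggcatctacAG
The abundant forms had 33 and 3422, 0 and 2967, and 0 and 2746 counts at E15.5. With positions counted from 1 at the 5′ end and the abundant form's base first, the rare forms differ by T27A, T27C and A28G. They had 3, 2 and 1 counts, all in E15.5 replicate 2, and whether they are errors of sequencing was not tested. No 26 or 27 nt form of these families was counted in any library, so these families differ by substitution and not by length.

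In 168 families without a structural match, a 26 or 27 nt form and a member were both abundant in each E15.5 library. The 1 shown here was chosen after its values were seen, because it contains member 5 of the leading E15.5 sequences, and 5 of its forms are given. Capitals mark the bases after position 26.
Form of 26 nt: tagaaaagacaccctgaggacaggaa
Form of 27 nt: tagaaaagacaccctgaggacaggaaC
Form of 28 nt: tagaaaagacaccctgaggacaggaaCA
Form of 29 nt: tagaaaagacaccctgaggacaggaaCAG
Form of 30 nt: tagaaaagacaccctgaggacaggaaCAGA
At E15.5 these forms had 139 and 0, 182 and 2644, 203 and 4471, 1000 and 4184, and 924 and 0 counts. At E13.5 the forms of 27 to 29 nt had 0 in replicate 1 and 24, 131 and 193 in replicate 2, and the 30 nt form had 260 and 146. The 5′ end was thus shared by all 5 lengths in E15.5 replicate 1 and by 3 of them in replicate 2, and the form with the most counts differed, with 29 nt leading in replicate 1 and 28 nt leading in replicate 2.

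Pairs of opposite-strand abundant sequences on transcripts were counted by the overlap of their 5′ ends. At least 1 sequence of a pair was a member, and the other could have another length or first base. In E15.5 replicate 1 there were 1947 pairs with an overlap of 10 nt, where the other overlaps from 5 to 20 nt had 543 to 751 pairs. In E15.5 replicate 2 there were 34 such pairs of 172, where the other overlaps had 6 to 15. The pairs with both sequences abundant in both E15.5 libraries numbered 44, of which 7 overlapped by 10 nt and 1 to 5 by each other length. In E13.5 replicate 2 there were 2 of 12 pairs at 10 nt, against 3 at 15 nt and 3 at 17 nt, so 10 nt did not lead there. The other 5 libraries had no pair at any overlap. An overlap of 10 nt was thus the most frequent in both E15.5 libraries. Only 14506 and 1234 abundant members at E15.5 matched a transcript, so most of the class took no part in this count.

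A pair of sequences with such an overlap is shown from each of 2 places, chosen after values were seen. Capitals mark the first 10 bases, which are the overlap.
Pair 1, member of 28 nt: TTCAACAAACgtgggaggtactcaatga
Pair 1, partner of 26 nt: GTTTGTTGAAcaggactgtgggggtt
Pair 2, member of 29 nt: TCTCTCCTGAtacgttcctctctttcttc
Pair 2, partner of 27 nt: TCAGGAGAGAaacagaggaaaaagaag
The member of pair 1 had 166 and 1880 counts at E15.5 and its partner 181 and 1201, and both were at 0 in the other 6 libraries. The member matched 5 places on transcripts, so its origin among them cannot be told. The member of pair 2 (chr14:54295517-54295545, plus strand) had 73 and 1318 counts at E15.5, and its partner (chr14:54295500-54295526, minus strand), in Gm43305, had 126 and 1386. Outside E15.5 the second pair had 1 count, of the partner in E13.5 replicate 2. All 4 sequences were thus E15.5 sequences, and in both pairs the strands had counts of the same order.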

How the data were processed

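Small RNA of 8 libraries, 2 in each of 4 groups, was used as raw counts per distinct sequence, as deposited by the authors, who trimmed reads with cutadapt 3.2 and mapped them to GRCm38 with STAR 2.5.3a, allowing 2 mismatches and 100 places. Members were selected by length and first base. Members, comparisons and named lists were chosen with earlier results of these data known. Shares were taken of library totals, at least 7447873 reads, with Wilson intervals. Groups were compared by exact permutation, and 56 classes by edgeR 4.0.16 and DESeq2 1.42.0 in R 4.3.3 with Benjamini-Hochberg adjustment. Other steps used Python 3.11.15 with numpy 2.4.6, pandas 2.3.3 and scipy 1.17.1. Structural RNAs, miRNA hairpins and transcripts were matched exactly to GENCODE M21 and RefSeq annotation. miRNAs of the marker lists were matched over their first 18 nt. Sequences were named by mean share (5 at E15.5, 2 in each other group, 3 without structural match in both E15.5 libraries, and 3 families), and some of these are not reported here. Genes, length forms and overlap pairs were chosen after values were seen. Alternatives covered normalization, denominators, filters, ways of counting and each library left out.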

Additional observations from a re-analysis of the deposited data

Results flagged for a closer look

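Sequences outside the members carried a signal at E15.5 that was above its level at E12.5 and in SGET mPGCLCs. Among distinct 28 to 30 nt sequences without a first U, A stood at position 10 in 24.8% and 25.8% (E12.5), 27.6% and 28.7% (E13.5), 56.5% and 57.0% (E15.5), and 25.4% and 23.2% (SGET mPGCLCs). The E15.5 mean was 56.7%, against at most 25.8% in any library of E12.5 or SGET mPGCLCs. These sequences are not part of the comparisons of members, and the cause was not tested.

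Sequences of 31 to 33 nt with a first U, longer than the members, took 0.536% and 0.497% of reads at E12.5, 0.432% and 1.06% (E13.5), 1.27% and 2.62% (E15.5), and 0.563% and 0.484% (SGET mPGCLCs). The E15.5 mean was 1.95%, against at most 0.563% in any library of E12.5 or SGET mPGCLCs. Both E15.5 libraries were above all others, and the libraries of E13.5 lay on both sides of the E12.5 values. The cause was not tested.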

How the results depend on the processing

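Of the values under alternatives other than leaving out a library, 235 kept their direction and, where tested, their side of the threshold. 11 turned direction, 1 lost its call and 5 counts moved. The rise of the member share by stage kept its direction under each alternative run. Where a value changed, the cause was not tested.

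The ratio of members to 26 and 27 nt reads from E12.5 to E13.5 turned to 0.839 over distinct sequences, 0.852 for 28 over 27 nt, 0.861 over abundant sequences and 0.710 without sequences whose first 20 nt match structural RNA. The first-U percentage of SGET mPGCLCs minus E12.5 turned to -1.01 over distinct sequences. Sharing of 5′ ends turned to -1.42 over reads from E13.5 to E15.5, and for SGET mPGCLCs minus E12.5 to -2.60 over reads and -2.29 over abundant members. With distinct sequences counted once, the log2 fold changes of SGET mPGCLCs minus E12.5 turned to -0.33, -0.37 and -0.20 at 28, 29 and 30 nt.

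For SGET mPGCLCs minus E13.5, the 30 nt class lost its call with all lengths and a filter (-1.42, adjusted p = 0.0621, range over alternatives 8.6e-08 to 0.276). Classes called higher numbered 4 with DESeq2 and 0 with only the 2 groups compared, with all lengths and a filter, and with distinct sequences counted once. Classes called lower numbered 4 with all lengths and a filter.

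With each library left out in turn, 174 values were unaffected in this sense, 9 turned, 3 lost their call and 6 counts moved. In these fits the lone sample is assumed to vary like the other groups. The ranges were 0.972 to 1.36 for the member share and 0.654 to 1.06 for distinct members of SGET mPGCLCs over E12.5, 0.934 to 1.23 for the ratio from E12.5 to E13.5, and -0.834 to 3.18 points for sharing of 5′ ends from E13.5 to E15.5. From E12.5 to E13.5 the 30 nt log2 fold change ranged from 1.40 to 2.37 (adjusted p from 1.8e-06 to 0.0648 over all alternatives) and the classes called higher from 3 to 6. For SGET mPGCLCs minus E12.5 the 28 nt class ranged from -0.11 to 0.47 and the 29 nt class from -0.0781 to 0.0950. For SGET mPGCLCs minus E13.5 the 30 nt class ranged from -1.82 to -0.85, classes called higher from 0 to 1 and lower from 4 to 7.

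The labels give same-numbered replicates nothing in common but the number, although the replicate 2 libraries of mPGCs share members at low counts. With the number as a replicate block, the share folds were 4.37 and 7.48 by stage and 1.15 and 0.264 for SGET mPGCLCs over E12.5 and E13.5. For each of the 56 classes, the log2 share in a library was taken as a deviation from its group mean. Over classes, these deviations were correlated between same-numbered libraries of 2 groups. The correlations were -0.02 (E12.5 with E13.5), 0.79 (E13.5 with E15.5), 0.39 (E12.5 with SGET mPGCLCs) and -0.48 (E13.5 with SGET mPGCLCs).

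The restriction to abundant sequences, the match over the first 20 nt, and the descriptions of overlaps and 3′ ends on transcripts were chosen after seeing the data. Repeat content, genomic copies and their alternatives (reads for distinct members, and members at 1 place) were not run, since no genome sequence was used here. Depth limits the numbers of distinct members and the absence of a sequence, which 3 counts of a library total bound.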
